A study of Mus musculus with 71 samples.

Results

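Distal hubs are stretches of chromatin that lie away from every promoter and are listed at the end of many H3K27ac loops, which were pooled over many cells. They were chosen by their position and their loop count: a hub was a distinct anchor of the merged HiChIP loop list with no transcription start site (TSS) of any GENCODE transcript within 2 kb, and with at least 5 distinct loops. Of 16864 distinct anchors, 3885 were distal in this sense, and 227 of these, 5.84% of the distal anchors, were hubs. The same loop count was reached by 2716 of 12979 anchors near a TSS, which is 20.9%. Since the loop count selected the hubs, their loop counts are given as a description.

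The loops came from 2 synovial sarcoma (SyS) tumors of hSS2 mice, which express the human SS18::SSX2 fusion from Rosa26 after TATCre protein is injected in the hindlimb at day 8 of life. Whole tumors were dissociated, so stromal, endothelial and immune cells of the host were included, and there was no group without the fusion. The loops of both tumors were deposited as a single list without tumor names, so no value carries an error between tumors and no test between tumors could be made. Fewer cells of a type and fewer loops per cell cannot be told apart in such material.

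Acetylation of lysine 27 on histone H3 (H3K27ac) marks active promoters and active enhancers, which are stretches of DNA that bind transcription factors and raise the output of promoters at a distance. In HiChIP, chromatin is cut, ligated to what lies beside it in the nucleus and then immunoprecipitated. A sequenced pair of ends, called a tag here, thus records a contact in chromatin enriched for H3K27ac. It does not show that both places carry the mark. Neighboring enhancers that contact each other and a shared promoter are known from developmental genes such as those of the Hox clusters.

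The sequences of 7 hubs to which later results refer are shown, as the central 300 bases of each on the plus strand of GRCm38 from the RefSeq assembly. The Maml3 hub had the most loops, the Lncppara hub the most tags, the Skap1 and Rara hubs stand for loops of low and high tag counts, and the Hes1, Gadd45b and Kdm6b hubs had strong promoter loops. None of these 7 stretches overlapped an exon of GENCODE. Capitals mark matches on either strand to the motifs MEIS (TGACAG), KLF and SP (GGGCGGG), NFI (TTGGCA), TCF and LEF (CTTTGA), MyoD-type E-box (CAGCTG), TEAD (GGAATG) and RUNX (TGTGGT).
Maml3 intron hub, chr3:52046423-52046722, plus strand: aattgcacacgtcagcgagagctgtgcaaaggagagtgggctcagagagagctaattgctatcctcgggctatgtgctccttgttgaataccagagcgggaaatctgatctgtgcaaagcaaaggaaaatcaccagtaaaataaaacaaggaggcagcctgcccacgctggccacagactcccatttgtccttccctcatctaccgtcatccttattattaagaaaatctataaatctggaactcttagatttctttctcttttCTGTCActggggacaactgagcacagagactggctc
Lncppara intron hub, chr15:85670947-85671246, plus strand: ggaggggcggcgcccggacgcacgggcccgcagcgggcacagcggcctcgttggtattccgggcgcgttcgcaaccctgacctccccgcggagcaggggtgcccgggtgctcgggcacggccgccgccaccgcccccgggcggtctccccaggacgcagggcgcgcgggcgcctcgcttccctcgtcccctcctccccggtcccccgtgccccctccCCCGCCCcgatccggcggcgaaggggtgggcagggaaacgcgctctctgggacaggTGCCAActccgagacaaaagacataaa
Skap1 intron hub, chr11:96539721-96540020, plus strand: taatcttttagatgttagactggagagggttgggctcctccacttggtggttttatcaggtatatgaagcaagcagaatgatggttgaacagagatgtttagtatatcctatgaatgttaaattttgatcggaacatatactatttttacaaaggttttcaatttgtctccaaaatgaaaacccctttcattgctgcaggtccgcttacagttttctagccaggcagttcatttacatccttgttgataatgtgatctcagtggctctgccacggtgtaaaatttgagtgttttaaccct
Rara intron hub, chr11:98969047-98969346, plus strand: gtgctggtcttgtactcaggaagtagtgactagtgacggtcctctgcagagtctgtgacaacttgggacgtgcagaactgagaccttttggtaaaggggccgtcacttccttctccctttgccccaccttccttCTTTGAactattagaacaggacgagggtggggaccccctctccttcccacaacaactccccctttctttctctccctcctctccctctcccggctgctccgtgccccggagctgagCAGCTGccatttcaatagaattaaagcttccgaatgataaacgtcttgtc
hub upstream of Hes1, chr16:29893241-29893540, plus strand: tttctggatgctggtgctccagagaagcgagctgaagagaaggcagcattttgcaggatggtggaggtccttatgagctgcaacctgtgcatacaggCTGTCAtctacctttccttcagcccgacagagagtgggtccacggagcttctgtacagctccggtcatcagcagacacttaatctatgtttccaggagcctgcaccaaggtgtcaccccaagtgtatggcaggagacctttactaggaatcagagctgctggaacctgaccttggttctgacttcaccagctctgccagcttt
hub next to Gadd45b, chr10:80938252-80938551, plus strand: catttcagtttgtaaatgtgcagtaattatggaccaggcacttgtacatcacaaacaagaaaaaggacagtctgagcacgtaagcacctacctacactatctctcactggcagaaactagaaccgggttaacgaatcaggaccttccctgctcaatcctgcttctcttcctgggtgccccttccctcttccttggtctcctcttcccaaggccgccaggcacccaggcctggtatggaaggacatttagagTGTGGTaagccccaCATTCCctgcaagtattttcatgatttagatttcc
hub next to Kdm6b, chr11:69418359-69418658, plus strand: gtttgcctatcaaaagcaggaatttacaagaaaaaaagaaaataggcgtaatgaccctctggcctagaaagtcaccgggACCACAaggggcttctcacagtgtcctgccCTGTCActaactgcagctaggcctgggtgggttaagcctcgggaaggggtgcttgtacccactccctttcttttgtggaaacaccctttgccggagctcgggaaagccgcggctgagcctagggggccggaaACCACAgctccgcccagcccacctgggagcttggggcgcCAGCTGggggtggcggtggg

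These stretches differed widely in base composition. The Lncppara stretch had a GC content of 76.0% with 40 CpG dinucleotides, whereas the Skap1 stretch had 38.0% with 3 CpG dinucleotides and no match to any motif of a transcription factor that was searched. The Kdm6b stretch held 2 RUNX matches. A match is only a string of letters, and factor binding was not measured in these values.

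Loop counts of distal anchors fell off steadily across the threshold. There were 2307 distal anchors with 1 loop, 140 with 4 loops, 78 with 5 loops, 57 with 6 loops and 36 with at least 10 loops, and the highest count was 16. Just outside the threshold, the anchors with 4 loops held a median of 5 tags (4 to 91), and just inside it, those with 5 loops held a median of 6 tags (5 to 61). The 227 hubs lay at 213 places without overlap. They held 1451 distinct loops, 6.01% of all 24129, and 3391 tags, 8.16% of all 41574. A hub held a median of 10 tags, from 5 to 157.

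**Figure D1:**
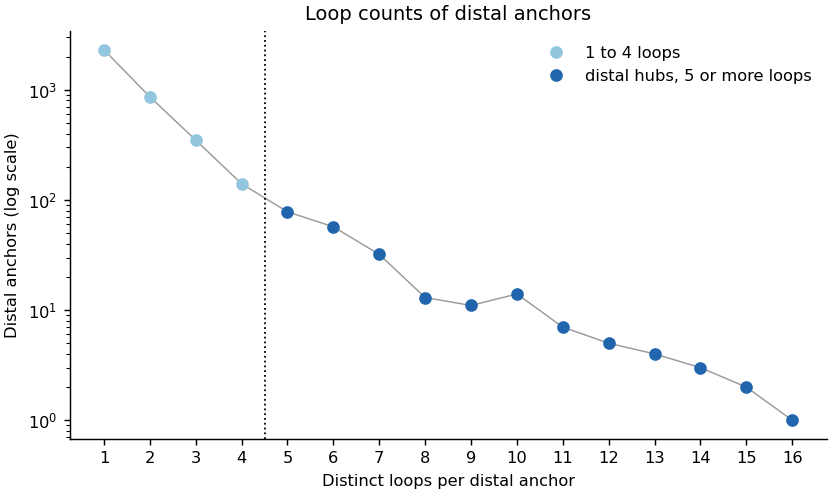
Number of distal anchors (vertical axis, log scale) at each number of distinct loops per anchor (horizontal axis); the dotted line is the threshold. Counts run from 2307 anchors with 1 loop through 140 with 4 and 78 with 5 to 1 with 16, with no gap at the threshold.

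Most loops of the hubs rested on a single tag. A single tag was recorded for 70.3% of hub loops (Wilson 95% interval 67.9 to 72.6), compared with 86.2% (85.3 to 87.2) of loops at distal anchors with 1 to 4 loops and 72.3% (71.5 to 73.0) at promoter anchors with at least 5 loops. At the other end, 13.5% (11.8 to 15.4) of hub loops had at least 4 tags, compared with 3.72% (3.23 to 4.27) at other distal anchors. An FDR under 0.01, the adjusted p-value given by the authors' loop caller, was listed for 21.3% (19.3 to 23.5) of hub loops and 9.32% (8.55 to 10.1) of loops at other distal anchors. The share of single tags was also lower at hubs than at other distal anchors within each part of the list described next, 61.4% (57.5 to 65.1) and 76.3% (74.3 to 78.2) in the first and 76.6% (73.3 to 79.7) and 91.4% (90.5 to 92.3) in the second. Hubs thus had both more loops, by their choice, and more tags in each loop, which their choice did not require. At 46 hubs every loop was a single tag, 42 hubs had a loop of at least 10 tags, and 155 had a loop with an FDR under 0.01. These intervals cover counting error only, because loops of nearby hubs share anchors.

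The list is made of 2 parts, each sorted by position, so that anchors chosen in 1 part could be read in the other. The 227 hubs were chosen on both parts together, and 23 of them reached 5 loops only with both. Comparisons of hubs with other distal anchors within a part use anchors chosen in that part alone. The first part held 13683 lines and the second 10561, neither carries a tumor name, and each was read here against the other. Of 94 distal anchors with at least 5 loops in the first part, 68.1% (58.1 to 76.6) overlapped an anchor with a loop in the second. The share was 32.0% (28.1 to 36.2) for 512 distal anchors with 2 to 4 loops and 16.6% (13.9 to 19.7) for 644 with 1 loop. In the opposite direction the shares were 36% of 114, 16.7% of 879 and 7.92% of 1755. The 227 hubs were also wider, at a median width of 2.79 kb against 2.20 kb at other distal anchors, and the part of width in these shares was not tested.

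**Figure D2:**
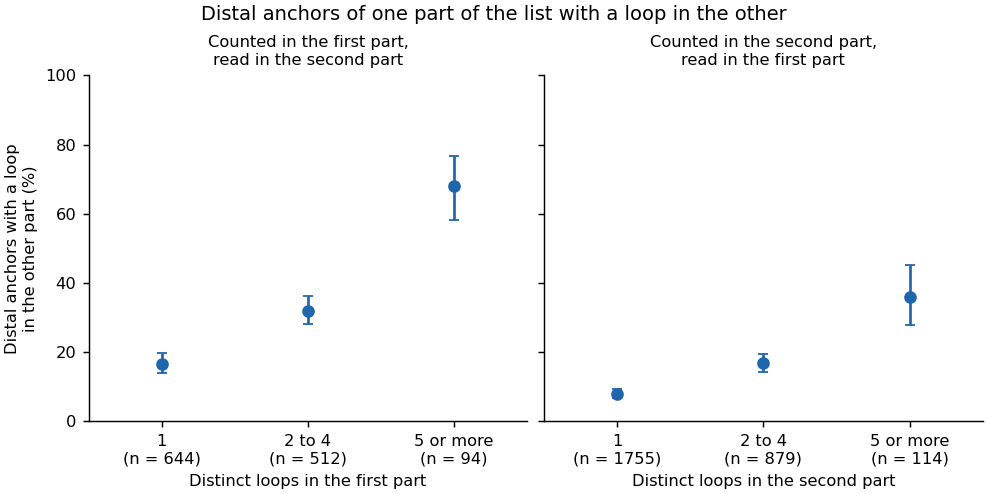
Share of distal anchors that overlap an anchor with a loop in the other part of the list (vertical axis, percent, with Wilson 95% intervals) against their number of distinct loops in the part where they were counted (horizontal axis). From 1 loop to at least 5, the share goes from 16.6% to 68.1% in the left panel and from 7.92% to 36% in the right panel.

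Single loops came back less often than the places they start from, which the counting itself requires. A loop was counted only when both of its ends overlapped, and an anchor when any loop touched it. Of 627 loops at distal anchors with at least 5 loops in the first part, 62 were met in the second with both ends overlapping, which is 9.89% (7.79 to 12.5), compared with 4.22% (3.39 to 5.23) of loops at distal anchors with 1 to 4 loops. In this direction the share was lower for loops with 1 tag: 3.38% (1.98 to 5.69) of these loops with 1 tag were found again, 17.1% (11.4 to 24.7) of those with 2 to 3 tags, and 23.5% (16.8 to 31.9) of those with at least 4. For loops of at least 4 tags at distal anchors with 1 to 4 loops the share was 19.5% (13.7 to 27.1), an interval that overlaps that of the hubs. From the second part to the first, 7.20% (5.47 to 9.41) of hub loops and 2.55% (2.07 to 3.14) of the loops of other distal anchors were found. By tags, the shares of hub loops in that direction were 5.28% (3.66 to 7.58) with 1 tag, 6.45% (2.99 to 13.4) with 2 to 3 tags and 23.8% (15 to 35.6) with at least 4, so that only the last stood apart.

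At 18 places at least 5 loops were counted in each part. At 4 of them the coordinates were identical in both. These were the Maml3 intron hub, a Lncppara hub, a hub near AC129179.3 in the neighborhood of Zfp608, and a hub far from any TSS. For the last, the nearest TSS, 257.7 kb away, was that of Fzd1, the gene of a Wnt receptor. At the other 14 a hub of the first part and a slightly shifted hub of the second part overlapped, and these pairs account for the 28 hubs that overlap another hub. Of these 14 pairs, 6 lay in the Sox1 and Hes1 neighborhoods.

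Promoters were the usual partners of hubs, though less often than for other anchors. The other end was near a TSS for 1049 of 1576 hub loop ends, 66.6% (64.2 to 68.8), where a loop between a pair of hubs is counted from each of them. The share was 76.3% (75.2 to 77.4) at distal anchors with 1 to 4 loops and 88.2% (87.7 to 88.6) at promoter anchors with at least 5 loops. The level differed between the parts of the list, but hubs were below other distal anchors in each: 80.5% (77.2 to 83.3) and 86.1% (84.5 to 87.6) in the first part, 53.1% (49.5 to 56.6) and 71.3% (69.8 to 72.7) in the second. Every hub was joined to at least 1 promoter, with a median of 4. The partner was a promoter anchor with at least 5 loops for 43.8% of hub loop ends, a promoter anchor with fewer loops for 22.7%, a distal anchor with fewer loops for 17.6% and another hub for 15.9% (14.1 to 17.7). Of the loop ends of other distal anchors, 4.91% (4.38 to 5.51) reached a hub. Hubs have more loops for others to reach by the way they were chosen, so the last shares are a description.

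Partners with many loops were also tied by more tags. Loops from hubs to promoter anchors with at least 5 loops had a mean of 2.84 tags, and those between 2 hubs a mean of 2.62, compared with 1.57 to promoter anchors with fewer loops and 1.95 to distal anchors with fewer loops. There were 125 loops between 2 hubs, with a median span of 305.1 kb, and 110 hubs had such a loop.

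Hub loops were shorter than those of the other classes over the whole list. Their median span between anchor midpoints was 399.8 kb (95% interval 380.5 to 427.5), compared with 447.3 kb (433.6 to 460.0) at other distal anchors and 510.5 kb (502.7 to 518.8) at promoter anchors with at least 5 loops. In the first part the medians were 561.6 kb for hub loops and 633.1 kb for loops of other distal anchors, and in the second they were 271.4 and 336.5 kb. Spans at promoter anchors were read on the whole list only. The second part held 34.8% of tags at hubs and 22.9% at promoter anchors with at least 5 loops. The part of this mix in the span difference from promoter anchors was not tested. Spans under 100 kb made up 10.1% (8.68 to 11.8) of hub loops and 3.03% (2.60 to 3.54) of loops at other distal anchors. No loop under 100 kb at either class rested on a single tag, so the list holds short loops only from a higher number of tags. Between 100 and 500 kb, a TSS lay at the other end of 60.4% (57.0 to 63.8) of hub loop ends and of 73.4% (71.8 to 75) at other distal anchors. Between 1 and 2 Mb the shares were 79.9% (74.7 to 84.3) and 82.1% (79.7 to 84.3), and their intervals overlap. These shares by span were read on both parts together. The parts differed in both span and near-TSS share, so span and part cannot be told apart in them.

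Hubs lay outside genes more often than other distal anchors. By their midpoint, 72 hubs were intronic, 10 exonic and 145 outside every gene, so that 36.1% (30.2 to 42.6) were in a gene, compared with 56.1% (54.5 to 57.7) of distal anchors with 1 to 4 loops. The shares in a gene were 33.0% (24.3 to 43.0) and 53.2% (50.3 to 56.1) in the first part and 41.2% (32.6 to 50.4) and 56.0% (54.1 to 57.9) in the second. With TSSs of RefSeq transcripts in place of GENCODE, 50.0% (43.7 to 56.3) of hubs were in a gene. The share of other distal anchors was not computed in that setting, so the comparison rests on GENCODE TSSs. The median distance to the nearest TSS was 11.7 kb (9.39 to 14.8), close to the 13 kb (12.4 to 13.6) of other distal anchors, and ranged from 2.14 to 270.5 kb. Within 5 kb of a TSS lay 51 hubs, 22.5% (17.5 to 28.3), compared with 16.9% (15.7 to 18.1) of other distal anchors.

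In sequence, hubs lay between other distal anchors and promoters over the whole list. Their median GC content was 49.2% (48.2 to 49.9), compared with 46.8% (46.7 to 47.0) at other distal anchors and 53.6% (53.4 to 53.8) at promoter anchors with at least 5 loops. In the first part alone hubs had 51.0% (49.7 to 51.6) and other distal anchors 46.6% (46.3 to 47.0), whereas in the second the medians were 47.6% (46.1 to 49.2) and 47.0% (46.8 to 47.2), with overlapping intervals. The ratio of observed to expected CpG dinucleotides, which is low where methylated CpGs were lost in evolution, had a median of 0.318 at hubs (0.309 to 0.339), 0.239 at other distal anchors (0.235 to 0.243) and 0.575 at promoter anchors with at least 5 loops (0.568 to 0.580). A GC content over 50% together with a ratio over 0.6, which is typical of CpG islands, was found at 11 hubs, 4.85% (2.73 to 8.47), at 1.53% (1.18 to 1.98) of other distal anchors and at 36.6% (34.8 to 38.4) of promoter anchors with at least 5 loops. The ratio and these shares were read on the whole list only. Of the 11 hubs, 4 were around Bcor on the X chromosome, at 3 places since a pair of them overlapped. The Lncppara hub shown had the highest ratio of all hubs, 0.834. A median of 5 MboI sites per hub and 4 per other distal anchor could be cut in the assay.

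Of the motifs searched in the central 300 bases of each anchor, KLF and SP (GGGCGGG) stood out, with a match at 14.5% (10.5 to 19.7) of hubs, 5.69% (4.98 to 6.48) of other distal anchors and 24.1% of all anchors. KLF and SP factors bind GC boxes, letters that hold only G and C, and the part of the higher GC content of hubs in this share was not tested. Motif shares were read on the whole list only, whereas the GC contents of hubs and other distal anchors stood apart in the first part alone. RUNX (TGTGGT) was matched at 16.7% (12.4 to 22.1) of hubs, 22.3% (21 to 23.7) of other distal anchors and 14.6% of all anchors. AP-1 (TGANTCA), the site of Fos and Jun dimers, was matched at 5.73% (3.38 to 9.55) of hubs, 8.31% (7.46 to 9.25) of other distal anchors and 5.21% of all anchors. HOX and PBX (TGATTNAT) was matched at 4.41% (2.41 to 7.92) of hubs, 3.42% (2.88 to 4.06) of other distal anchors and 1.62% of all anchors. For RUNX, AP-1 and HOX and PBX the intervals of hubs and other distal anchors overlap.

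Part of the hubs lay in a few neighborhoods, whereas most groups were a single hub. When hubs no more than 500 kb apart were joined, 113 groups resulted, of which 79 were a single hub and 11 had at least 4 hubs. These 11 groups held 93 hubs, 41.0% of all, and the 4 with the most hubs held 60, 26.4%. By chromosome, 32 hubs were on chromosome 18, 14.7% of its 217 distal anchors, and 33 on chromosome 11, 10.2% of 324. The share over all distal anchors was 5.84%, and the highest was on the X chromosome, 18.6%, with 8 hubs among 43. Of distinct loops, 26.5% touched a hub on chromosome 18 and 8.44% on chromosome 11. Whether hubs were gathered more closely than distal anchors are was not tested.

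The group with the most hubs surrounded Zfp608, a zinc finger gene, at chr18:53993710-55763246. Of 51 distal anchors in this stretch, 24 were hubs. These 24 hubs had 147 distinct loops with 202 tags, and no loop had more than 8 tags. Loops between 2 hubs made up 41 of the 147. The hub with the most loops there, in an intron of Zfp608 at chr18:54914943-54916820, had 14 loops. Of its tags, 6 joined it to another hub 31.3 kb away. A further 5 reached an anchor near a Zfp608 TSS 36.4 kb away, chr18:54949448-54955179, which lies inside the gene. Another hub, at chr18:54275969-54281921 and 140.4 kb from the TSS of the Redrum RNA, had 13 loops, of which 12 had a single tag. Of these 12, 1 reached a different anchor near a Zfp608 TSS, chr18:54896081-54900621, at a distance of 619.4 kb. Of the tags of this group, 89.1% (84.1 to 92.7) were in the second part of the list, which held 31.1% of all tags.

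The second group, 14 hubs at chr8:11912498-12963928, surrounded Sox1, which encodes an HMG-box factor of neural progenitors, and its overlapping transcript Sox1ot. It had 82 loops with 151 tags, 45.7% (38.0 to 53.6) of them in the second part, and 22 loops joined 2 hubs. The hub with the most loops, at chr8:12000163-12002702, lay 51.8 kb from the nearest TSS and had 13 loops with 11 tags in the first part and 10 in the second. It reached the Sox1 promoter with 3 tags at 395.1 kb and a hub beside Gm33175 with 4 tags at 329.1 kb. All of its partners lay at higher coordinates, toward Sox1 and beyond.

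The third group, 11 hubs at chr16:29735235-30511615, surrounded Hes1, a transcriptional repressor that responds to Notch signaling, and was the group with the most tags, 233 on 60 loops. For 8 of its hubs the promoter loop with the most tags went to Hes1. The hub at chr16:29891911-29894870, outside every gene, was joined to the Hes1 promoter 174.2 kb away by 28 tags, all in the first part, with a listed FDR of 0. The hub that overlaps it, at chr16:29892736-29895558, was joined to Hes1 by 14 tags in the second part. On the other side of the gene, a hub 120.6 kb away was joined to Hes1 by 20 tags in the first part, and the hub that overlaps it, 119.9 kb away, by 7 in the second. At both places the loop to Hes1 was thus listed in each part.

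The fourth group, 11 hubs at chr11:96331434-96744437, ran from the Hoxb cluster through Skap1, a gene of a T cell adaptor protein. It had 78 loops with 127 tags, of which 94.5% (89.1 to 97.3) were in the second part. The hub with the most loops, in an intron of Skap1 at chr11:96537350-96542390, had 15 loops and 25 tags, none of them in the first part, and no loop over 3 tags. The promoters it reached with 3 tags were those of Hoxb4 at 221.2 kb, Hoxb7 at 251.9 kb and Gm11539 with Gm53 at 288.2 kb. The strongest loop of the group, with 7 tags, joined a hub in Hoxb3 to promoters of Hoxb2 and Hoxb3 over 13.6 kb.

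Smaller groups differed as widely between the parts. All 92 tags of the 4 hubs by Zic2 and Zic5, zinc finger genes of the neural crest and neural tube, were in the second part. Of the 114 tags of the 4 hubs by the forkhead gene Foxk1, 113 were in the first. The 7 hubs by Bcor, a subunit of the variant PRC1.1 complex, had 33 tags in the first part and 26 in the second. The 4 hubs in Dnm3 had 30 and 19, and their promoter loops with the most summed tags went to Dnm3os, the host RNA of Mir199a-2. Over all hubs, 34.8% of tags were in the second part, compared with 54.1% at other distal anchors. Whether this follows a tumor or a batch was not tested, since the parts have no names.

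**Figure D3:**
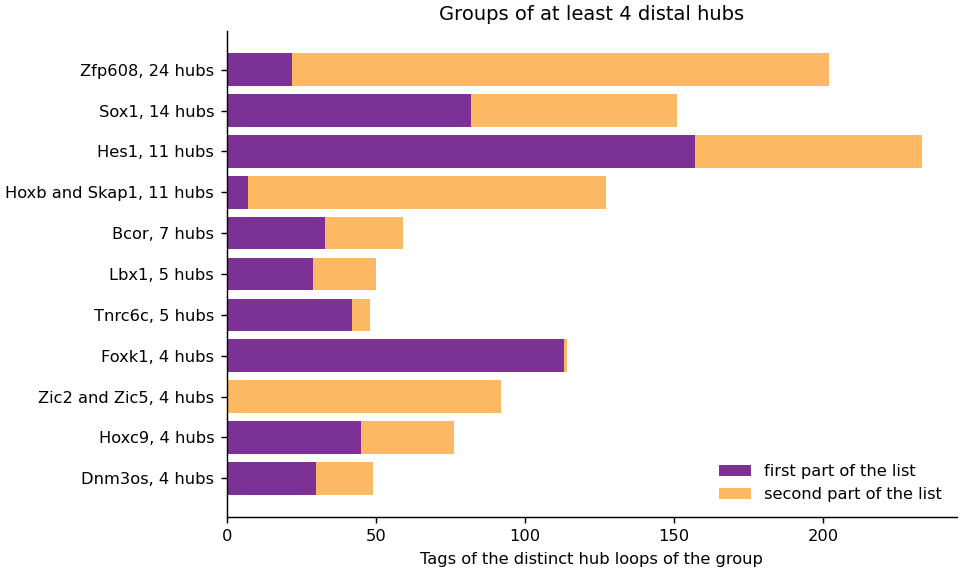
Tags of the distinct hub loops (horizontal axis) of each of the 11 groups with at least 4 hubs, divided by part of the list; each group is named by a gene its loops reach. The Hes1 group has the most tags, 233, with both parts present, whereas the Zfp608 and Hoxb groups are mostly of the second part and the Foxk1 group of the first.

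Outside these groups, several hubs carried their tags on 1 short promoter loop. The hub next to Kdm6b, which encodes an H3K27me3 demethylase, at chr11:69417150-69419866, had 5 loops with 61 tags, 44 of them to the Kdm6b promoter 7.86 kb away. The hub next to Gadd45b, a stress response gene, at chr10:80935621-80941182, had 14 loops with 58 tags, all to promoters, 32 of them to Gadd45b at 9.01 kb. These distances are between anchor midpoints. From the edge of the hub to the nearest TSS, the distance was 3.475 kb for Kdm6b and 4.81 kb for Gadd45b. With a TSS window of 5 kb neither would be a hub. The hub in Bahcc1 at chr11:120258562-120263916 had 6 loops with 68 tags, 49 of them to an anchor 25.1 kb away that holds TSSs of Bahcc1, 2900052L18Rik and Gm11772. At these 3 hubs all tags were in the first part.

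Other hubs spread their tags over more partners. The hub in an intron of Rara, the retinoic acid receptor alpha gene, at chr11:98967207-98971186, had 14 loops with 61 tags, and all 14 partners were promoters. Its strongest loops were 17 tags to Rara at 31.5 kb, 16 to Cdc6, a replication licensing gene, at 45.7 kb, and 11 to a further Rara TSS at 40.1 kb. The hub between Cirbp and Midn at chr10:80158845-80160483 had 13 loops with 35 tags, 15 of them to Midn at 11.5 kb. The hub near Pura at chr18:36285749-36289834 had 13 loops with 17 tags, and no loop over 3.

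The hub with the most loops of all, 16 with 51 tags, lay in an intron of Maml3, which encodes a coactivator of Notch, at chr3:52044744-52048400. It had 23 tags in the first part and 28 in the second. The Maml3 promoter region was joined to it by 12 tags in the first part at 56.8 kb and by 8 tags in the second at 57.3 kb. Both parts of the list thus gave the Maml3 promoter as the partner with the most tags. Of its remaining loops, 4 tags reached 5430433H01Rik at 461.3 kb and 3 tags Naa15 at 630.1 kb, and tags of both parts were listed for these.

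The hub with the most tags of all lay in an intron of the RNA gene Lncppara at chr15:85669338-85672854, with 15 loops and 157 tags, 136 in the first part and 21 in the second. Its strongest loop, of 69 tags, went to another hub 7.56 kb away at chr15:85676553-85680757, which had 10 loops and 131 tags. A further 47 tags reached a distal anchor 13.8 kb away, and 20 tags the promoter of Gm49539 at 25 kb. Tags to anchors classed as distal thus outnumbered tags to promoter anchors at this hub, but this order depends on the anchor of the 47 tags. That anchor, chr15:85656236-85658330, lies inside an anchor of the second part, chr15:85651690-85658330, which is near a Lncppara TSS. The hub was joined to the latter by 6 tags.

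**Figure D4:**
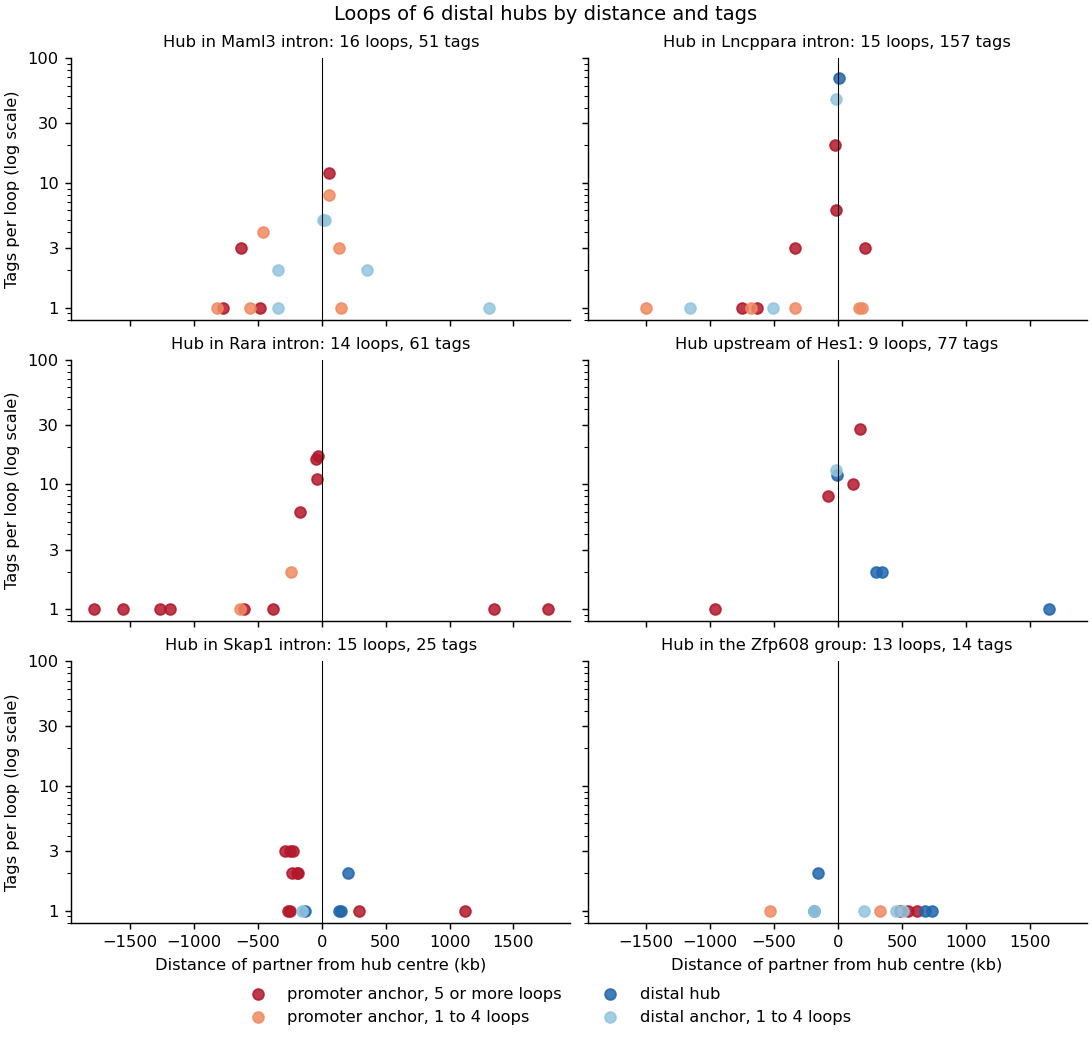
Tags per loop (vertical axis, log scale) against the signed distance of the partner from the hub centre (horizontal axis, kb) for 6 hubs; each point is a loop, colored by the class of its partner. The Lncppara hub reaches 69 tags and the Hes1 hub 28, whereas no loop of the Skap1 hub exceeds 3 tags and none of the hub with 13 loops in the Zfp608 group exceeds 2.

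A total of 1069 genes had a promoter joined to a hub, 8.1% of the 13200 genes with any loop. Of these, 784 were protein-coding and 860 were joined to 1 hub only. For 646 genes the hub loops held 1 tag in all, and 91 genes had at least 10 tags to hubs. Hub loops to 123 genes were listed in both parts. Genes that share a promoter anchor share its loops, so these counts are not of independent genes.

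Zfp608 was joined to the most hubs, 17, with 48 tags, all in the second part. These were 73.8% of the 65 tags at anchors near any Zfp608 TSS, and such anchors lay at separate places in the gene. Hes1 was joined to 10 hubs at 8 places, with 118 of its 225 tags, 52.4%, of which 80 were in the first part and 38 in the second. Its hubs lay 119.9 to 331.5 kb away. Sox1 was joined to 7 hubs with 21 of its 53 tags. Among the Hoxb genes, which set position along the body axis, Hoxb9 was joined to 8 hubs with 13 tags, Hoxb2 to 7 with 24, Hoxb5 to 6 with 21 and Hoxb7 to 6 with 13. Noncoding neighbors of these genes completed the list by hub number: AC129179.3 with 11 hubs, Gm34073 with 8, 4632428C04Rik, Hoxb3os, Sox1ot, Gm25239, Gm4221 and AC129179.2 with 7 each.

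By tags, Hes1 was followed by Bahcc1 with 57 tags from 3 hubs, Zfp608, and Kdm6b with 44 from 1 hub. Irf2bpl, the gene of a transcriptional regulator, followed with 40 from 3 hubs, which is 78.4% of its 51 tags. Gm49539 had 39 tags and Gadd45b 32. The distances of these hubs, between anchor midpoints, differed between genes. The single hub of Kdm6b lay 7.86 kb away, and the nearest of the 10 hubs of Hes1 lay 119.9 kb away. The hubs of Zfp608 lay from 5.15 to 992.6 kb away, and its loop with the most tags, 8, was the one over 5.15 kb.

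**Figure D5:**
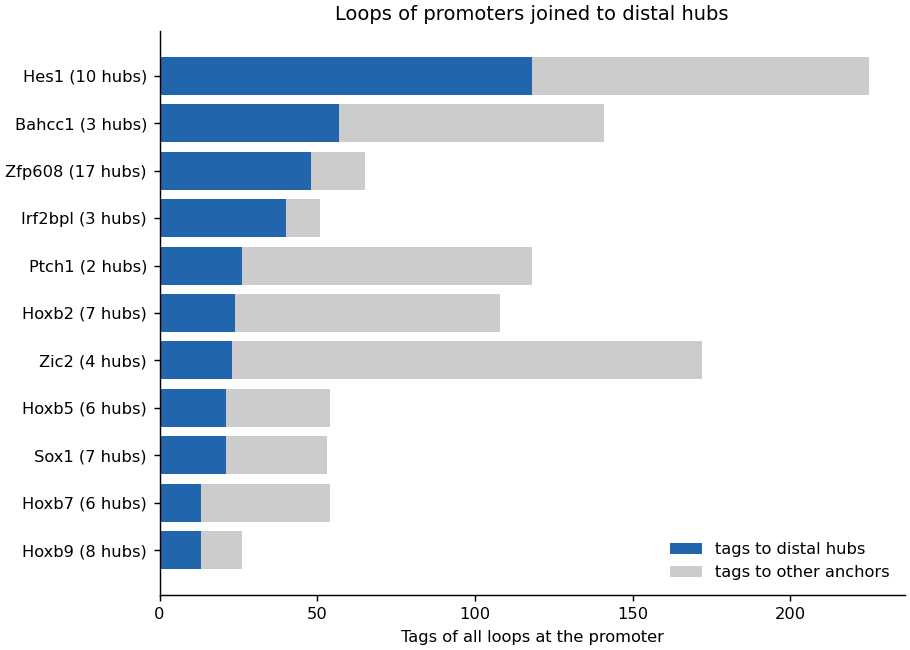
Tags of all loops at the promoter, meaning all anchors near any TSS of the gene (horizontal axis), divided into tags to distal hubs and tags to other anchors, for those protein-coding genes among the named genes that were joined to at least 2 hubs and had at least 6 hubs or at least 20 tags to hubs. Hubs give more tags than other anchors at Hes1, Zfp608 and Irf2bpl, and fewer at Hoxb2, Zic2 and Ptch1.

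The study's sarcomagenesis activated transcription (SAT) genes, which are silent in the mesenchymal cells of origin and expressed in SyS, were joined to hubs in 16 of 104 members with any loop, 15.4% (9.70 to 23.5), with a median of 4 tags per joined gene. For the maintained active transcription (MAT) genes, which are expressed in both, the count was 16 of 283, 5.65% (3.51 to 8.99), with a median of 1 tag. The lists held 185 SAT and 371 MAT genes, and members without any loop are not in these shares. Over all looped genes the share was 8.1%, which lies within the interval of the MAT genes and below that of the SAT genes. The SAT genes joined were 8 Hox genes (Hoxa10, Hoxb3, Hoxb4, Hoxb9, Hoxc4, Hoxc5, Hoxc6 and Hoxd3), Sox1, Sp9, Msx2, Irx1, Irx2, Fgf8, Kcnk1 and Nptx1, and neighboring Hox genes share hubs. The members with the most tags were Sox1 with 21, Sp9, a limb bud zinc finger factor, with 14, and Hoxb9 and Hoxc5 with 13 each. Both Sp9 hubs overlapped, a hub of each part of the list. Of the MAT genes, Ap5z1 had 18 tags from 3 hubs and Tnrc6c 11 from 2, whereas Agpat1 and Aldh6a1 had 1 tag each.

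Limb and mesenchyme transcription factors were joined to hubs in 10 of 44 looped members, 22.7% (12.8 to 37.0), with a median of 1.5 tags. Zic2 had 23 tags from 4 hubs, Tcf4 12 from 2, Msx2, a homeobox factor of limb mesenchyme, 9 from a hub 9.87 kb away, and the Hox cofactor gene Meis2 5 from a hub 207.2 kb away. Among genes of Notch, Wnt, FGF and Hedgehog signaling, 7 of 44 looped members were joined, 15.9% (7.93 to 29.4). These were Hes1 with 118 tags, the Hedgehog receptor gene Ptch1 with 26 from 2 hubs, the Wnt receptor gene Fzd1 with 14 from 2 hubs 228.4 and 260.9 kb away, Fgfr1 with 4, and Boc, Fgf8 and Hey1 with at most 2. The 8.1% of all looped genes lies within the interval of the signaling genes and below that of the limb and mesenchyme factors. These intervals treat genes as independent, but Irx3 and Irx5 were reached from the same hub with 1 tag each. The lists were chosen with earlier results known, so no enrichment is read from this.

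Of AP-1 and immediate early genes, 4 of 22 looped members were joined, 18.2% (7.31 to 38.5): Fos with 11 tags from 3 hubs, Btg2 with 5, and Egr1 and Jund with 1 each. Of matrix and adhesion genes, 2 of 12 looped members were joined, the type IV collagen genes Col4a1 and Col4a2, which share a promoter region and were reached by the same 2 loops of 1 tag each. For both lists the interval, 4.70 to 44.8% for the matrix genes, includes the 8.1% of all looped genes. Of the markers of other cells of the tumor, loops were listed for 4 of 10 endothelial markers, 1 of 10 leukocyte markers, 2 of 10 skeletal muscle markers and 2 of 8 adipocyte markers, and none of these was joined to a hub, but so few looped markers cannot be set against a share of 8.1%.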

How the data were processed

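H3K27ac HiChIP was done on 2 hSS2 tumors with MboI digestion. The authors aligned reads to mm10 through HiC-Pro and used hichipper for loop calling, after which the tumors were merged. Loops were kept at an FDR under 0.05 per the methods, or under 0.01 before merging per a legend. The list holds values up to 0.05, so all its loops were used, and the number of hubs under 0.01 is given in the closing section. The deposited list gives the raw count of tags of every loop and the adjusted p-value (FDR) of each loop from the authors' caller. Positions were converted to start at 1. The list had no header and held 24244 lines in 2 sorted parts, with 41574 tags in all. The 115 loops listed more than once were joined, with their tags summed.

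Distal and near-TSS anchors were set with the transcripts of GENCODE vM21, gene bodies with the same annotation, and sequence features with GRCm38. Shares carry Wilson 95% intervals and medians order-statistic 95% intervals, both for counting error only; single-tag loops limit the precision. With no replicate values, no test was made. The members and lists were chosen with earlier results of these data known. Named hubs were the 10 with the most loops, the 5 with the most tags and the 5 with the strongest loop. Named genes were the 15 with the most hubs, the 10 with the most tags to hubs and up to 4 per list, with further genes of the lists and groups given after their values were seen; 1 gene of this rule is not reported here. The reading of each part in the other was added after the list was seen.

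A total of 15 motifs was searched on both strands, and no motif contains another: AP-1, TEAD, RUNX, SOX (ATTGTT), TCF and LEF, TWIST E-box (CATCTG), MyoD-type E-box, MEIS, HOX and PBX, ETS (CCGGAAG), CRE (TGACGTCA), KLF and SP, NFI, the CTCF core and the MboI site (GATC). The rule was tested on simulated data with 289 planted loops, and all 30 planted hubs were found. Alternatives were other TSS windows and annotations, loop filters, loop minimums, merged anchors and each part of the list alone. The ChIP-seq data of the series were not analysed here. The scripts ran in Python 3.11.15 with scipy 1.17.1, pandas 2.3.3, matplotlib 3.10.9 and numpy 2.4.6.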

Additional observations from a re-analysis of the deposited data

How the results depend on the processing

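The choice of loops changed the number of hubs most. From 227, it went to 15 with an FDR under 0.01, 29 with at least 2 tags, 94 in the first part of the list, 114 in the second, 367 from 4 loops and 60 from 8 loops. The near-TSS share of partners, 66.6%, was 62.3% with a window of 1 kb, 61.3% with protein-coding TSSs, 62.4% with loops up to 1 Mb, 80.5% and 53.1% in the first and second parts, and 71.2% without the 24 hubs around Zfp608, a setting added after seeing the data. The single-tag share, 70.3%, was 0% with an FDR under 0.01, 64.5% with loops up to 1 Mb, 65.4% from 8 loops, and 61.4% and 76.6% in the parts. The median span, 399.8 kb, was 227.6 kb with an FDR under 0.01, 167.1 kb with at least 2 tags, 313.3 kb with loops up to 1 Mb, and 561.6 and 271.4 kb in the parts. The share in gene bodies, 36.1%, was 43.8% with protein-coding and 50.0% with RefSeq TSSs. The share of hubs with loops of both parts at overlapping anchors, 54.6%, was 47.4% from 4 loops. The median GC content, 49.2%, was 51.0% with an FDR under 0.01, 51.6% with at least 2 tags, 50.2% from 8 loops, and 51.0% and 47.6% in the parts. An FDR under 0.01 and a minimum of 2 tags remove single-tag loops by construction, and for the other changes the cause was not tested. Under the remaining settings values stayed within the main interval, or within 1.5 times the main number of hubs.

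No paired analysis was possible because the list names no tumor, and for the same reason no value without a tumor is given. The list gives no depth per tumor. Most loops had 1 tag, and a loop of 1 tag between 2 places is not firmly placed.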
